A study of Mus musculus with 37 samples.

Results

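The comparison described here set ureter cancer of mice given a bladder carcinogen (UT) against the ureters of untreated mice (U), and it used every library of both kinds, 17 of the 37 libraries sequenced. All mice were female BALB/c animals. The cancer-bearing mice drank water with 0.05% BBN (N-butyl-N-(4-hydroxybutyl)nitrosamine, a nitrosamine whose metabolites damage the DNA of the urothelium) from 6 to 7 weeks of age and were killed 17 to 20 weeks later, given as 18 weeks in the sample labels, whereas the untreated mice drank tap water. No transgene or other genetic change was carried by either group, and both ate the same standard diet. UT comprised 11 libraries from 10 mice, since mouse 5 had cancer in both ureters (UT 5R and UT 5L), and U comprised 6 libraries, the right and left ureters of 3 mice (U 1R to U 3L). The remaining libraries came from the noncancerous ureter of BBN-treated mice (UN, 7 libraries) and from bladders, and UN appears below only as a side comparison. Each library was made from a piece of whole tissue, so a lower value for a cell type may come from fewer of its cells or from less RNA in each of them, and these cannot be told apart. Treatment, time on BBN and the presence of cancer also cannot be told apart between UT and U.

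The ureter is lined by the urothelium, a layered epithelium in which basal cells carrying keratins 5 and 14 give rise to intermediate and umbrella cells, and the umbrella cells cover the lumen with plaques of uroplakins. Around it lie a lamina propria of fibroblasts, vessels and nerves and a coat of smooth muscle that moves urine by peristalsis, and the outer adventitia lies in fat. BBN is widely used in rodents because it gives rise to invasive urothelial carcinomas, often with squamous features, in tissue that is at the same time inflamed. Whole transcriptome sequencing of such tissue therefore reads tumour cells, stroma, immune cells and fat together.

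Estimated counts per library totalled 9724542 to 16735797 in UT and 12980008 to 18793560 in U. Levels are given as CPM, counts brought to an equal library size after scaling by the trimmed mean of M values (TMM), and a gene was called when its false discovery rate (FDR, Benjamini-Hochberg over all genes tested) was under 0.1 and its fold change (FC) was at least 2-fold. FC is given as log2 of UT over U ± SE. CPM is not divided by gene length, so an order of genes by CPM also reflects their lengths. The p-values treat the ureters of 1 mouse as separate samples, and a gene whose call ended when counts were summed per mouse (10 against 3 mice) is named as such.

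Markers of the labelled tissue were present in both groups, but a few libraries stood apart. The uroplakin Upk3a was found at 5.71 to 1661 CPM in UT (median 246) and 426 to 969 CPM in U (median 666), and the smooth muscle myosin Myh11 at 7.56 to 224 CPM in UT (median 92.5) and 293 to 1066 CPM in U (median 916). Adipocyte markers (12 genes, summed) reached 57515 to 94797 CPM in U and 69.9 to 44026 CPM in UT, so that all 11 UT libraries lay below all U libraries. Among UT, the lowest adipocyte totals were those of UT 2 (69.9 CPM), UT 4 (534 CPM), UT 5L (967 CPM) and UT 10 (1073 CPM), and the highest was that of UT 9. UT 9 also lay nearest to U, with 18.8% of the called genes at least 2-fold from the U mean in the called direction, against 42.3 to 66.8% in the other 10 UT libraries. UT 4 held kidney tubule transcripts (14 markers, 2749 CPM summed) that reached no more than 22.2 CPM in any other library of UT or U. Within U, the left ureter of mouse 3 (U 3L) differed most often from the other 5.

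**Figure D1:**
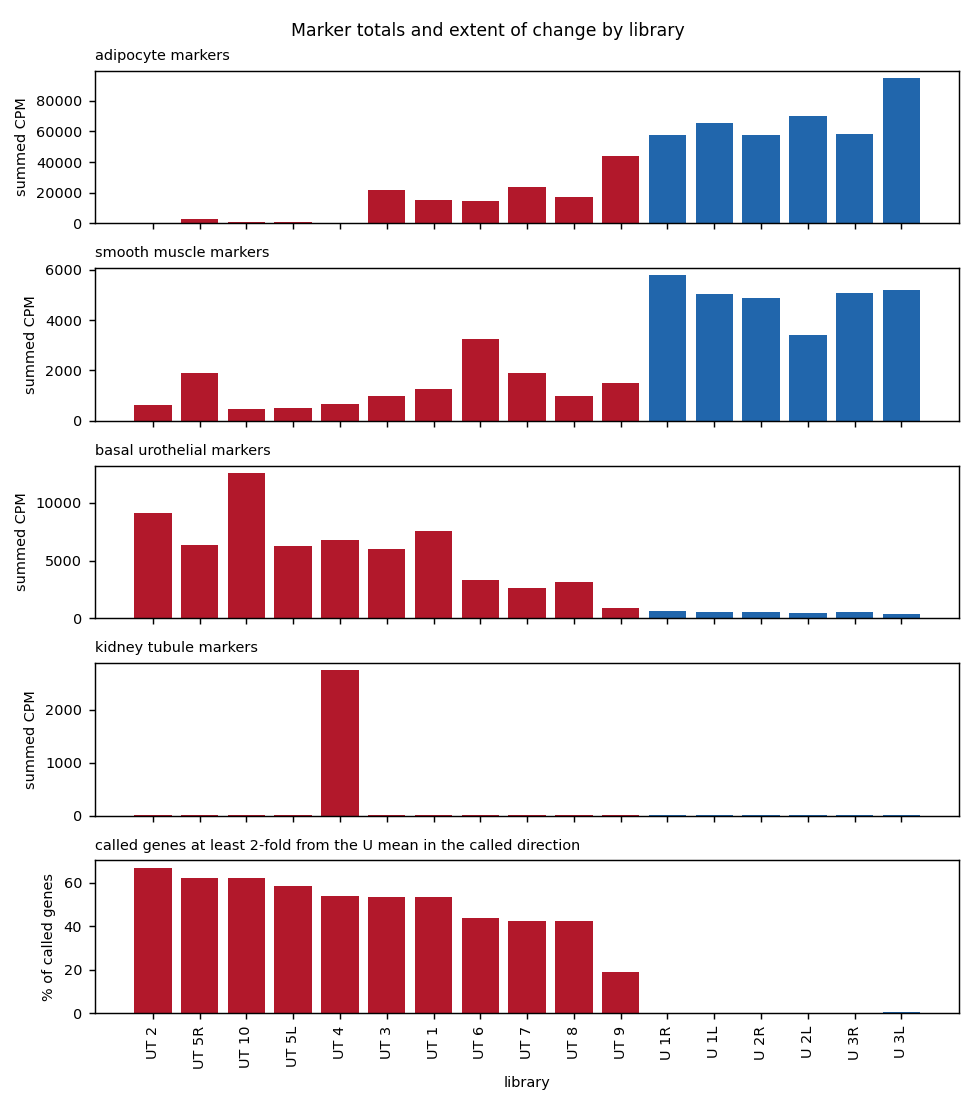
Summed CPM of adipocyte, smooth muscle, basal urothelial and kidney tubule markers, and the percent of called genes at least 2-fold from the U mean in the called direction, for each of the 11 UT libraries (red, ordered by that percent) and the 6 U libraries (blue). Adipocyte and smooth muscle totals of every UT library lie below those of every U library, UT 9 has the highest adipocyte total and the lowest percent of changed genes in UT, and UT 4 alone has a high kidney tubule total.

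The transcriptome differed broadly between cancer and untreated ureter. Of 15357 genes tested, 2874 were higher in UT (18.7%) and 1918 were lower (12.5%), together 31.2%, and 59.5% had an FDR under 0.1 whatever their fold. Increases were larger than decreases: 335 genes were called at least 16-fold higher and 22 at least 16-fold lower. All 11 UT libraries lay above all 6 U libraries for 1418 genes (9.23%) and below them for 1303 (8.48%). The counts of list members below, called or without overlap, are to be read against these shares of all genes. The median log2 FC of all genes was 0.11, and it was 0.39 when libraries were scaled by their totals alone, where 73.8% of the calls were higher in UT instead of 60%. When UT 4 and UT 9 were left out, 2859 genes were higher and 2284 lower. With the mean adipocyte marker level of each library as a covariate, an alternative chosen after seeing the data, 1947 genes were higher and 374 lower, of which 1612 and 304 were also called without it. Since adipocyte level and group did not overlap between UT and U, fat and group cannot be fully told apart in that fit, and the calls left under it are given below for most of the lists. Libraries of UT varied more than those of U, with a common dispersion of 0.308 against 0.0372 and a larger SD in UT for 91.9% of genes. The U libraries were ureter pairs of 3 mice and the UT libraries came from 10 mice. The spread of U was therefore in part within mice.

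**Figure D2:**
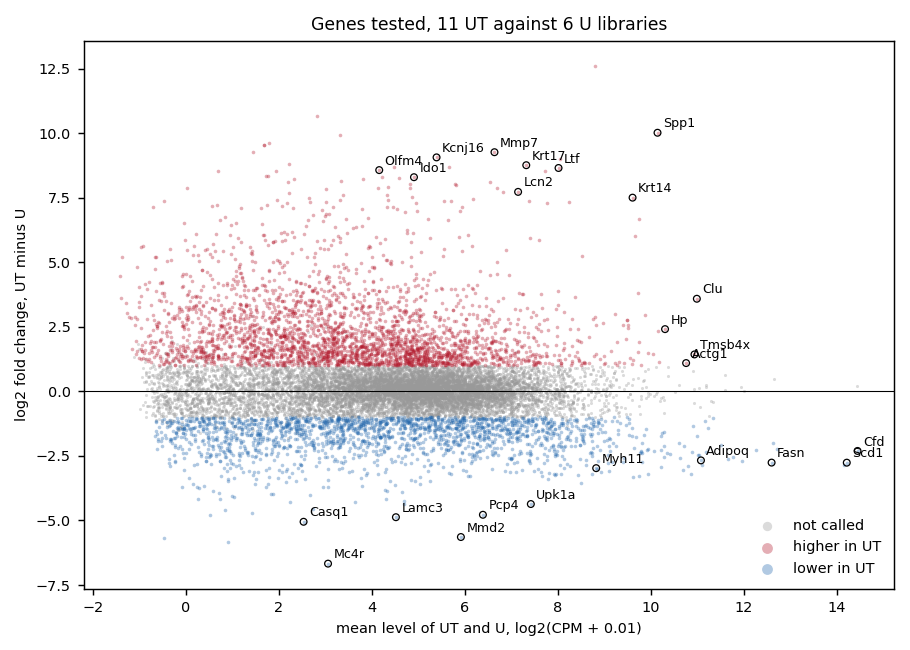
Log2 fold change of UT over U (vertical axis) against the mean level of both groups in log2(CPM + 0.01) (horizontal axis) for 15357 genes, with genes called higher in red (2874), called lower in blue (1918) and not called in grey. Circled genes are described in the text, and the increases reach further from 0 than the decreases.

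Among genes chosen for no overlap between the groups and a mean of at least 10 CPM in UT, the largest increases included genes of secretion, keratins, mucosal defense and ion transport. Spp1 (chr5:104435118-104441050), encoding osteopontin, a secreted phosphoprotein made by macrophages and epithelial cells, was measured at 24 to 19226 CPM in UT (median 362) and 1.01 to 5.45 CPM in U (median 1.57) (log2 FC = 10.01 ± 1.86, FDR = 0.00037). Without UT 4, where it was highest, its log2 FC was 8.02. Mmp7 (chr9:7692090-7699585), encoding matrilysin, an epithelial metalloprotease, ranged over 1.71 to 995 CPM in UT (median 73.5) and 0.0763 to 0.651 CPM in U (median 0.229) (log2 FC = 9.26 ± 1.43, FDR = 8.9e-05), with 8.53 when UT 1 was left out. Gabrp (chr11:33550781-33578959), a GABA-A receptor subunit of epithelia, stood at 61.1 to 1235 CPM in UT (median 490.3) and 0.763 to 1.57 CPM in U (median 0.986) (log2 FC = 8.98 ± 0.70, FDR = 3.7e-07). The potassium channel gene Kcnj16 rose by 9.06 (10.30 without U 3L), the keratin gene Krt17 by 8.76, and Bcl2l15, a relative of the BCL2 apoptosis regulators, by 8.70. Kcnj16, like Spp1, was highest in UT 4 (338 CPM), the library with kidney tubule transcripts. Ltf, encoding the iron-binding defense protein lactoferrin, rose by 8.65 and Olfm4, encoding the secreted glycoprotein olfactomedin 4, by 8.57. Olfm4 was at 0 to 0.17 CPM in U, so its fitted fold rests on few counts there. Ido1, which degrades tryptophan, rose by 8.29 but by 5.71 without UT 2, Tmem171 by 8.16 (7.47 without UT 2) and the cytochrome P450 gene Cyp4a12b by 8.28 (7.33 without UT 10). Cyp4a12b shares reads with a near-identical copy and its count is uncertain. Mill1, an MHC class I-like gene, was counted at 0.225 to 49.7 CPM in UT (median 3.25) and 0 to 0.0813 CPM in U (median 0), and its U counts were too few for a fold.

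Among genes chosen for no overlap between the groups and a mean of at least 10 CPM in U, the largest decreases included receptors and genes of muscle, matrix and umbrella cells. Mc4r, encoding the melanocortin 4 receptor, was at 0 to 0.889 CPM in UT (median 0) and 9.05 to 25 CPM in U (median 16.2) (log2 FC = -6.67 ± 0.70, FDR = 3.9e-06, -7.72 without UT 7). Upk1a (chr7:30603092-30612847), a uroplakin of the umbrella cell plaque, was at 0.642 to 56.0 CPM in UT (median 11.3) and 215 to 399 CPM in U (median 326) (log2 FC = -4.36 ± 0.60, FDR = 3.6e-05). Mmd2 fell by 5.64 on the log2 scale and, without UT 9, its log2 FC was -7.37. Calsequestrin 1 (Casq1, a calcium store protein of muscle) had a log2 FC of -5.05, the laminin chain Lamc3 -4.87, the transmembrane collagen Col23a1 -4.25, the calmodulin-binding Pcp4 -4.78 (-5.41 without UT 6) and the neural adhesion gene Cntn6 -4.55. Scube2, whose product releases hedgehog proteins from cells, had -4.29, the RNA-binding Rbm24 of muscle -4.18, Luzp2 -4.01 and Cyp4f15 -4.38 (-5.29 without UT 6). The call of Cyp4f15 ended with the adipocyte level as a covariate (log2 FC -1.78, FDR = 0.23).

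Among the called genes with the highest CPM, the increases encoded secreted, cytoskeletal and cornified envelope proteins and the decreases were genes of fat. Clu, encoding the extracellular chaperone clusterin, was at 433 to 10699 CPM in UT (median 3068) and 241 to 343 CPM in U (median 322) (log2 FC = 3.58 ± 0.53, FDR = 6.1e-05), with no overlap. Actg1, cytoplasmic gamma actin, rose from 953–1215 CPM in U to 1416–3791 CPM in UT (log2 FC = 1.09), a call that ended with RIN, the RNA integrity number (log2 FC 0.84), or the adipocyte level (0.47) as a covariate. Tmsb4x, encoding the actin-binding thymosin beta 4, had 1.43 and Sprr2a3, a cornified envelope precursor that shares reads with neighbouring copies, 2.33 (1.55, FDR = 0.12, with the adipocyte level). Hp, encoding haptoglobin, spread over 19.8 to 9069 CPM in UT (median 604) and 331 to 533 CPM in U (median 369), and its call ended without UT 3 (1.84), U 2R (2.36) or U 2L (2.35) and with counts summed per mouse (FDR = 0.24). The decreases at high CPM, Cfd, Scd1, Car3, Fabp4, Fasn and Cyp2e1, were genes of adipocytes and lipid synthesis and are given with the fat markers below.

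**Figure D3:**
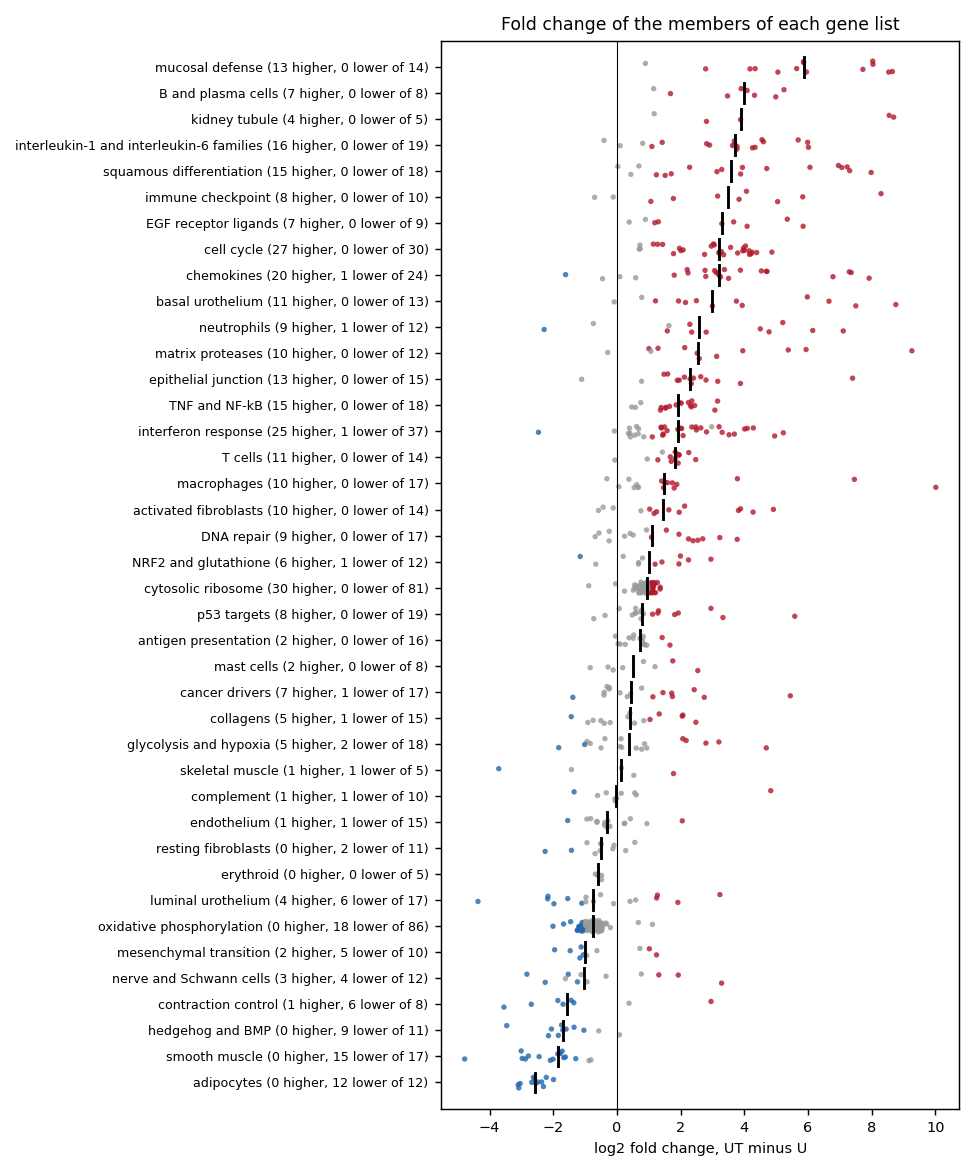
Log2 fold change of UT over U for every tested member of 40 gene lists (points, red called higher, blue called lower, grey not called), with the median of each list as a vertical bar and the lists ordered by it. Mucosal defense has the highest median (5.86) and adipocytes the lowest (−2.57).

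Basal and squamous genes were higher in the cancers. Of 13 basal urothelial genes 11 rose and none fell, with a median log2 FC of 3.0, read against 18.7% of all genes higher and a median of 0.11, and of 18 tested squamous differentiation genes 15 rose (median 3.59). Krt14 (chr11:100203162-100207548), a keratin of basal cells, was measured at 135 to 3798 CPM in UT (median 1222) and 6.01 to 10.8 CPM in U (median 8.67) (log2 FC = 7.5 ± 0.68, FDR = 1.4e-06), so that the lowest UT library, UT 9, still exceeded every U library. Krt5, its usual partner, was at 126 to 3123 CPM in UT (median 984) and 100.3 to 151 CPM in U (median 137) (log2 FC = 3.0 ± 0.53, FDR = 0.00024), with UT 9 inside the U range. The basal genes Krt15 and Col17a1 (log2 FC 6.66 and 5.98) and the adhesion receptor Cd44 (1.93) also rose without overlap. Trp63, the transcription factor of basal cells, did not pass (log2 FC = 0.78, FDR = 0.11). Of the 13 basal genes, 8 passed with the adipocyte level as a covariate and 9 with RIN (median 2.18).

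Keratins of activated and squamous epithelium were among the squamous genes that rose. Krt6a (chr15:101689910-101694307) was at 15.7 to 2011 CPM in UT (median 169) and 2.03 to 3.11 CPM in U (median 2.81) (log2 FC = 7.31 ± 1.09, FDR = 7e-05), and without UT 2, which held the highest level, its log2 FC was 6.66. Krt16 rose by 7.06, Krt6b by 7.98 (7.30 without UT 2) and the desmosomal cadherin gene Dsg3 by 6.96, each with every UT library above every U library. Sprr1a, a cornified envelope precursor, differed little (155 to 1077 CPM in UT (median 425) and 314 to 651 CPM in U (median 539), log2 FC = 0.03 ± 0.39, FDR = 0.96). Summed over the list, squamous genes ranged from 318 CPM in UT 9 to 4406 CPM in UT 2, against 411 to 801 CPM in U. Of the 18 genes, 9 passed with the adipocyte level as a covariate and 12 with RIN (median 2.86).

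Of 17 luminal genes tested, 6 were lower (35.3%, against 12.5% of all genes) and 4 were higher (23.5%, against 18.7%), with a median of −0.74. Beside Upk1a, the lower genes were Upk2 (0.714 to 93.4 CPM in UT (median 18.6) and 68.7 to 132 CPM in U (median 109), log2 FC = -1.98 ± 0.61, FDR = 0.012), Upk3b, Sncg, Pparg (-2.17) and Krt20, the umbrella cell keratin (-1.10). Pparg encodes a nuclear receptor used both by luminal urothelium and by adipocytes. The 4 that rose, named after their values were seen, were Krt8 (1.25), Krt19 (1.91) and the transcription factors Elf3 (3.23) and Foxa1 (1.27). Upk3a varied over UT from 5.71 to 1661 CPM, both below and above the U range of 426 to 969 CPM, and was not called (FDR = 0.37). With the adipocyte level as a covariate, 2 of the 6 lower calls were left, those of Upk1a and Krt20, while Upk2 (log2 FC -0.05), Pparg (-0.36), Upk3b (-0.88) and Sncg (-0.43) did not pass, and of the 4 higher calls that of Foxa1 (1.03) ended. The call of Foxa1 also ended per mouse (FDR = 0.12), and Krt20 was under 2-fold with library totals (-0.80).

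Genes of epithelial junctions were higher, and of the regulators of mesenchymal transition more were lower than higher. Of 15 junction genes 13 rose (median 2.30). Epcam, an epithelial adhesion molecule, was at 114 to 926 CPM in UT (median 573) and 21.1 to 42.8 CPM in U (median 31.7) (log2 FC = 3.88 ± 0.45, FDR = 9.3e-06), without overlap, and the tight junction gene Cldn7 rose by 2.80. Cdh1, encoding E-cadherin (1.96), and Cldn4 (2.30) were called, but not with the adipocyte level as a covariate (0.38 and 1.04), where 4 of the 15 passed, and with RIN 13 passed (median 1.65). Of 10 mesenchymal transition genes, 5 were lower (50.0%, against 12.5% of all genes), among them Twist1 (log2 FC = -1.96 ± 0.38, FDR = 0.00051) and Zeb1 (-1.16), and 2 were higher (20%, near the 18.7% of all genes), Snai2 (1.24) and fibronectin, Fn1 (1.02). Vim, encoding vimentin, was not called (-0.63, FDR = 0.073). Neither increase passed per mouse (FDR = 0.11 for Snai2 and 0.19 for Fn1), and that of Fn1 also missed the threshold without any of UT 2, UT 7, UT 8, UT 10, U 1R, U 1L, U 2L, U 3R and U 3L, with log2 FCs of 0.81 to 1.27 when a single library was left out. With the adipocyte level as a covariate, Twist1 (-0.91), Zeb1 (-0.09) and Snai2 (0.12) did not pass. Over the 10 genes, 3 were higher and 2 lower with library totals alone, 0 and 3 with RIN as a covariate, and 1 and 0 with the adipocyte level.

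Proliferation genes were higher in the cancers. Of 30 cell cycle genes 27 rose (90%, against 18.7% of all genes) and none fell (median 3.21). In 25 of the 30 all UT lay above all U, as in 9.23% of all genes. Mki67 (chr7:135689784-135716361), which marks dividing cells, was at 12.9 to 126 CPM in UT (median 29.3) and 1.71 to 3.77 CPM in U (median 3.05) (log2 FC = 3.95 ± 0.56, FDR = 4.5e-05). Ccnb1, the mitotic cyclin B1, was at 7.73 to 168 CPM in UT (median 46.2) and 1.06 to 2.44 CPM in U (median 1.99) (log2 FC = 4.86 ± 0.69, FDR = 4.7e-05). Top2a, the topoisomerase of dividing cells, rose by 4.00, the spindle checkpoint genes Cdc20 and Bub1b by 4.16 and 4.39, and Mcm5, part of the replicative helicase, by 2.75. The list sum was 2976 CPM in UT 2 and 2588 CPM in UT 10, the highest, and 455 CPM in UT 5L and 460 CPM in UT 9, the lowest of UT, against 219 to 252 CPM in U. When the adipocyte level was a covariate 21 of 30 passed, and 25 with RIN (median 2.49).

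Some DNA repair genes were higher in the cancers. Of 17 tested, 9 rose (52.9%, against 18.7% of all genes) and none fell (median 1.09). Those that rose included Brca1, a gene of homologous recombination (2.02 to 20.4 CPM in UT (median 5.09) and 0.642 to 1.83 CPM in U (median 1.20), log2 FC = 2.69 ± 0.52, FDR = 0.00052) and the nuclease gene Exo1 (3.78). Mgmt, which removes alkyl groups from guanine, had a log2 FC of -0.68 (FDR = 0.025), under 2-fold. The adipocyte covariate left 4 of 17 passing.

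Part of the p53 program was higher. Of 19 p53 target genes 8 rose (42.1%, against 18.7% of all genes), with a median of 0.78. Cdkn1a, encoding the cell cycle inhibitor p21, was at 81.1 to 276 CPM in UT (median 158) and 18.7 to 25.2 CPM in U (median 19.8) (log2 FC = 2.95 ± 0.28, FDR = 1.6e-06), and Gdf15, a stress-induced secreted factor, rose by 5.58. Mdm2, the ubiquitin ligase of p53, had all UT above all U but a change under 2-fold (log2 FC = 0.74 ± 0.16, FDR = 0.0011), and Ccng1 (0.07) and Phlda3 (-0.37) were not called. The adipocyte covariate left 7 of 19 passing.

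Of 17 genes mutated or amplified in human urothelial cancer, 7 were higher (41.2%, against 18.7% of all genes). Rb1 alone was lower (5.88% of the list, against 12.5% of all genes), and the list median was 0.43. Trp53 itself was at 45.2 to 97.0 CPM in UT (median 54.3) and 17.8 to 26.6 CPM in U (median 21.5) (log2 FC = 1.44 ± 0.18, FDR = 2e-05), and Ccnd1, encoding cyclin D1, rose by 2.74. Cdkn2a, whose locus encodes p16 and p19Arf, was near absence in U and present in every UT library (0.676 to 8.65 CPM in UT (median 2.12) and 0 to 0.214 CPM in U (median 0.0288), log2 FC = 5.44 ± 0.85, FDR = 9.4e-05, 6.30 without U 1L), and these products cannot be told apart in counts per gene symbol. Rb1, the retinoblastoma gene, was at 14.8 to 46.8 CPM in UT (median 25.3) and 59.1 to 78.9 CPM in U (median 71.4) (log2 FC = -1.38 ± 0.22, FDR = 0.00011), with no overlap. Fgfr3 (2.42) and Myc (1.72) rose, but not with the adipocyte level as a covariate (0.86 and 0.96), and Rb1 was then under 2-fold (-0.80). These are RNA levels and say nothing of mutations.

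Ligands of the EGF receptor were higher. Of 9 genes of the list, the receptor included, 7 rose (median 3.29). Ereg, encoding epiregulin, was at 3.89 to 58.8 CPM in UT (median 11.3) and 0.115 to 0.569 CPM in U (median 0.236) (log2 FC = 5.85 ± 0.69, FDR = 1.1e-05), Areg, encoding amphiregulin, at 2.72 to 56.4 CPM in UT (median 11.2) and 0.0763 to 0.651 CPM in U (median 0.294) (log2 FC = 5.35 ± 0.75, FDR = 4.5e-05), and Hbegf at 8.11 to 152 CPM in UT (median 31.4) and 2.68 to 4.56 CPM in U (median 3.47) (log2 FC = 3.66). All 3 had every UT library above every U library. The receptor gene Egfr had a log2 FC of 1.3, and of 0.30 with the adipocyte level as a covariate, where its call ended and 4 of 9 genes passed, and with RIN as a covariate 6 passed (median 2.28).

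**Figure D4:**
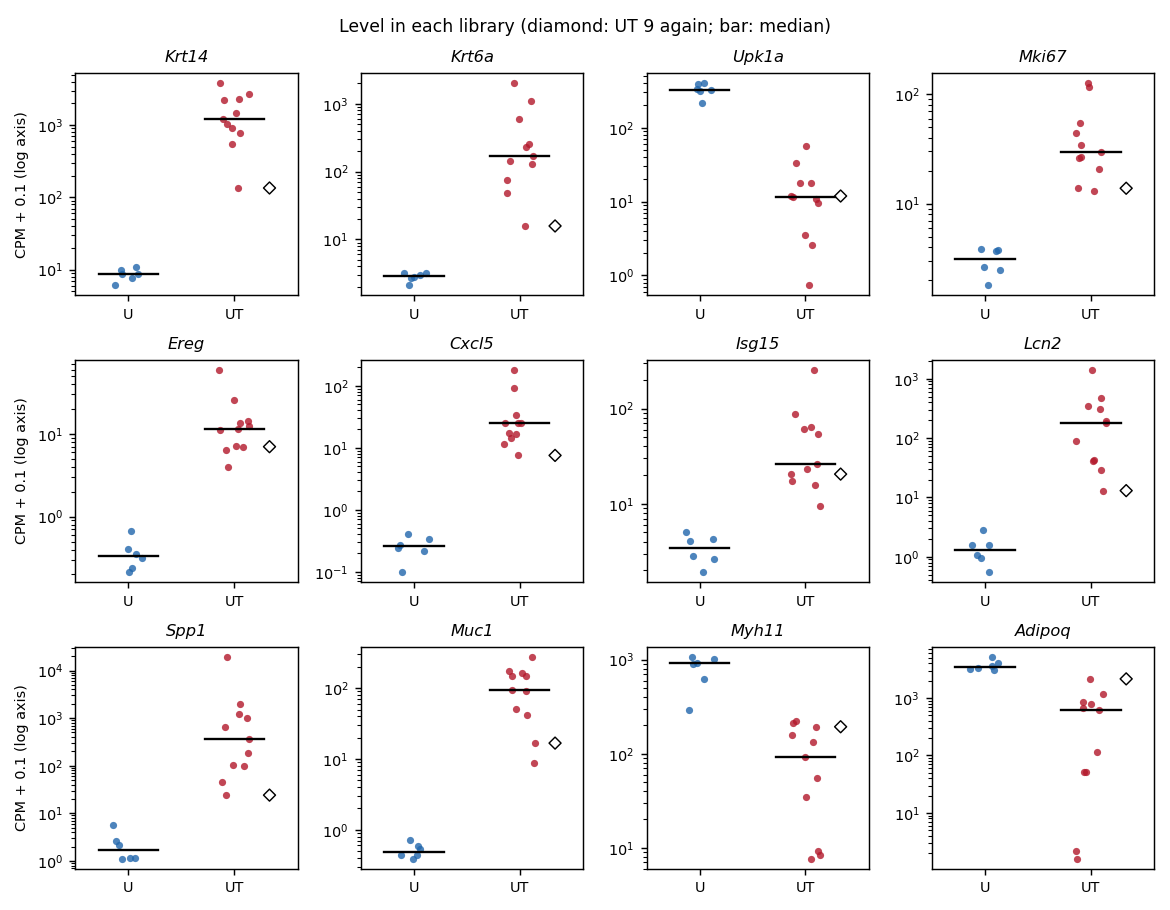
CPM + 0.1 on a log axis for 12 genes in each of the 6 U (blue) and 11 UT (red) libraries, with the median as a bar and UT 9 shown again as a diamond. Upk1a, Myh11 and Adipoq are lower in every UT library and the other 9 genes are higher in every UT library than in any U library.

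Inflammatory signalling genes were higher throughout the cancers. Of 18 genes of TNF and NF-kB signalling 15 rose (83.3%, against 18.7% of all genes) and none fell (median 1.91). In 13 of the 18 all UT lay above all U, as in 9.23% of all genes. The cytokine gene Tnf was at 1.42 to 8.78 CPM in UT (median 2.79) and 0.145 to 0.732 CPM in U (median 0.316) (log2 FC = 3.07 ± 0.47, FDR = 8.7e-05), its receptor gene Tnfrsf1b at 34.0 to 108 CPM in UT (median 63.7) and 21.7 to 32.8 CPM in U (median 24.4) (log2 FC = 1.39 ± 0.23, FDR = 0.00013), and the feedback inhibitors Nfkbia and Tnfaip3 rose by 1.52 and 2.24. The list sum varied little among cancers, from 1064 to 1695 CPM, against 470 to 547 CPM in U. Of these 18 genes, 15 passed with counts summed per mouse and 14 with the adipocyte level as a covariate.

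Most interleukin genes of the list were higher. Of 19 tested genes of the interleukin-1 and interleukin-6 families 16 rose (median 3.70). Il1b was at 6.59 to 98.5 CPM in UT (median 16.5) and 0.692 to 1.71 CPM in U (median 0.888) (log2 FC = 4.60 ± 0.61, FDR = 3e-05), Il6 at 0.895 to 4.76 CPM in UT (median 1.95) and 0 to 0.254 CPM in U (median 0.0813) (log2 FC = 4.25 ± 0.66, FDR = 8.8e-05), and the receptor antagonist gene Il1rn rose by 4.55. Il1a, an interleukin of damaged epithelium, rose by 6.01 but by 4.39 without UT 2, where it reached 148 CPM. The alarmin Il33 rose by 3.77, the inducible prostaglandin synthase gene Ptgs2 by 5.99 and the neutrophil colony factor gene Csf3 by 5.69. After adjustment for the adipocyte level, 15 of 19 passed.

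Most chemokine genes were higher. Of 24 tested 20 rose and 1, Cxcl9, was lower (median 3.20). Cxcl5 (chr5:90759360-90761624), a neutrophil attractant made by epithelium, was at 7.43 to 178 CPM in UT (median 25.1) and 0 to 0.305 CPM in U (median 0.156) (log2 FC = 7.92 ± 0.96, FDR = 1.4e-05, 7.32 without UT 2), and Cxcl1 at 2.38 to 19.9 CPM in UT (median 8.09) and 0 to 1.22 CPM in U (median 0.580) (log2 FC = 3.88 ± 0.59, FDR = 7.9e-05). Ccl20, which attracts cells with the receptor Ccr6, had no count in any U library and 0.300 to 4.03 CPM in UT, so its mean was at least 6.43-fold higher than the level that 3 counts in a U library would give. Ccl17 rose by 4.71. The interferon-induced chemokines parted: Cxcl10 rose by 3.21 (2.03 without UT 2, and 0.63, not passing, with the adipocyte level), while Cxcl9 was at 0.425 to 28.7 CPM in UT (median 3.61) and 14.1 to 30.6 CPM in U (median 17.8) (log2 FC = -1.61 ± 0.65, FDR = 0.046), a decrease that did not pass per mouse (FDR = 0.19) or with the adipocyte level and was -2.26 without UT 9.

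The promoters of 4 of these genes are shown because they hold the letters of an NF-kB site near the transcription start. The site was searched as GGGA, any base and TTTCC on both strands in the 250 bases before the start in RefSeq (GRCm38.p6), and it was found in 3 of 16 chemokine genes with a promoter sequence, 3 of 14 TNF and NF-kB genes and 0.414% of all 27025 genes. Each sequence is written 5′ to 3′ on the strand of the gene, with the match in capitals.
Cxcl1, chr5:90891149-90891208, plus strand: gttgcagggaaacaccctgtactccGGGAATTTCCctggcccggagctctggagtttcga
Cxcl2, chr5:90903777-90903836, plus strand: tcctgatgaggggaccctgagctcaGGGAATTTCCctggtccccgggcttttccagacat
Cxcl3, chr5:90786003-90786062, plus strand: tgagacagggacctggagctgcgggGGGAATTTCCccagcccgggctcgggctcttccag
Nfkbia, chr12:55492648-55492701, minus strand: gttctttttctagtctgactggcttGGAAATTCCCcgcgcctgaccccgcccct
Cxcl1 rose by 3.88, Cxcl2 by 7.30 (5.65 without UT 2 and 7.88 without U 2L), Cxcl3 by 6.78 (5.03 without UT 2) and Nfkbia by 1.52. Cxcl2 was at 0 to 0.145 CPM in U, so its fitted fold rests on few counts there. The match is a description of the letters and not a measured binding site.

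Interferon response genes were higher, most of all in UT 2. Of 37 genes 25 rose, 1 was lower and 11 did not pass (median 1.91). Isg15 (chr4:156199424-156200818), a ubiquitin-like protein induced by interferon, was at 9.36 to 253 CPM in UT (median 26.2) and 1.83 to 4.92 CPM in U (median 3.35) (log2 FC = 4.09 ± 0.71, FDR = 0.00023), with 253 CPM in UT 2 and 3.49 without it. Ifit1, a sensor of viral RNA ends, rose by 4.01, the oligoadenylate synthetase Oas3 by 4.95 and the regulator Irf7 by 2.63. Ifi27l2a went the other way, at 33.7 to 2060.4 CPM in UT (median 591) and 2385 to 6562 CPM in U (median 2989) (log2 FC = -2.47 ± 0.70, FDR = 0.0073), a call that ended with the adipocyte level as a covariate (-0.48). Summed, the list stood at 13317 CPM in UT 2 and 1619 to 4967 CPM in the other UT libraries, and at 3512 to 7912 CPM in U, so the summed level, to which Ifi27l2a contributes much, overlapped while most members rose. After adjustment for the adipocyte level, 12 of 37 passed.

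The interferon-stimulated response element, searched as a pair of GAAA runs with any 2 bases between them on both strands, was present in 14 of the 25 list members with a promoter sequence and in 3.46% of all genes. The sequences of 3 members that rose are shown with their matches in capitals.
Isg15, chr4:156200850-156200909, minus strand: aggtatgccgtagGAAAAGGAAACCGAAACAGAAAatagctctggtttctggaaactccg
Ifit1, chr19:34640779-34640838, plus strand: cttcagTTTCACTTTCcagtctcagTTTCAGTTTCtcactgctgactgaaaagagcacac
Oas3, chr5:120777700-120777759, minus strand: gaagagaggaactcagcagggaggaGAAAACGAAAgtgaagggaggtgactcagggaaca
Isg15 held 3 overlapping matches, Ifit1 held 2 in the reverse direction and Oas3 held 1. Of the 25 members with a promoter sequence 17 were called, and of the 14 with a match 8 were, and no binding was measured.

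Antigen presentation genes were mostly not called under TMM scaling, and most checkpoint genes were higher. Of 16 antigen presentation genes 2 rose (12.5% of the list, against 18.7% of all genes), the peptide transporter Tap1 (log2 FC = 1.66 ± 0.49, FDR = 0.0093) and the class II activator Ciita (log2 FC = 1.42 ± 0.57, FDR = 0.044), both of which did not pass per mouse (FDR = 0.11 and 0.2). B2m was at 443 to 3975 CPM in UT (median 1814) and 1573 to 2873 CPM in U (median 1644) (log2 FC = 0.10, FDR = 0.82), H2-K1 at 0.51 and Cd74 at 0.86 on the log2 scale, none called. Of 10 checkpoint genes 8 rose (median 3.50). Pdcd1, encoding PD-1, was at 0.608 to 15.8 CPM in UT (median 7.74) and 0 to 0.404 CPM in U (median 0.270) (log2 FC = 5.04 ± 0.69, FDR = 3.3e-05), Ctla4 at 0.243 to 16.5 CPM in UT (median 6.53) and 0 to 0.424 CPM in U (median 0.0743) (log2 FC = 5.83 ± 0.97, FDR = 0.00016, 6.59 without U 3R), and Havcr2, encoding TIM-3, rose by 3.83. Cd274, encoding PD-L1, was at 8.90 to 176 CPM in UT (median 20.1) and 31.5 to 56.0 CPM in U (median 36.3) and was not called (log2 FC = -0.12 ± 0.52, FDR = 0.86), with UT 2 alone at 176 CPM. The antigen presentation count changed with the fit: 9 of 16 were higher with library totals alone (median 1.02), 7 with the adipocyte level as a covariate and 0 per mouse. After adjustment for the adipocyte level, 8 checkpoint genes were higher.

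Mucosal defense genes had the highest list median, 5.86, with 13 of 14 members higher and none lower. Lcn2 (chr2:32384633-32388252), encoding lipocalin 2, which binds bacterial siderophores, was at 12.9 to 1394 CPM in UT (median 182) and 0.458 to 2.77 CPM in U (median 1.21) (log2 FC = 7.72 ± 1.15, FDR = 6.9e-05, 7.0 without UT 3). Muc1, a transmembrane mucin, was at 8.60 to 276 CPM in UT (median 94.0) and 0.290 to 0.610 CPM in U (median 0.387) (log2 FC = 8.03 ± 0.82, FDR = 3.2e-06), and Pigr, which carries IgA across epithelium, at 26.3 to 500.4 CPM in UT (median 82.9) and 2.21 to 3.46 CPM in U (median 2.78) (log2 FC = 5.64 ± 0.69, FDR = 1.6e-05). Slpi, a protease inhibitor of mucosal secretions, rose by 5.86 (6.58 without U 2R). The bactericidal lectin gene Reg3g was at 0.571 to 2267 CPM in UT (median 273) and 0.763 to 1.61 CPM in U (median 1.12) and rose by 8.53 (7.70 without UT 1), although its lowest UT library lay below the U range. Per mouse, and with the adipocyte level as a covariate, 13 of 14 passed.

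Of 10 complement genes tested, 1 was lower (10%, against 12.5% of all genes) and 1 was higher (10%, against 18.7%). C3, the central component, was the lower one (244 to 3437 CPM in UT (median 728) and 1633 to 3191 CPM in U (median 2885), log2 FC = -1.35 ± 0.49, FDR = 0.03) and Cfi, which inactivates C3b, the higher one (log2 FC = 4.83 ± 0.91, FDR = 0.00043, 4.10 without UT 4). Cfb (0.13) and C4b (0.61) were not called. The call of C3 ended per mouse (FDR = 0.16) and with the adipocyte level (0.03), and C3 and Cfd are also made by adipocytes. With the adipocyte level 5 of the 10 were higher, C4b among them (2.40), and none lower.

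Markers of neutrophils and macrophages were higher in part. Of 12 neutrophil markers tested 9 rose and 1 was lower (median 2.57), and with the adipocyte level 8 were higher and none lower. The calprotectin genes S100a8 (3.44 to 188 CPM in UT (median 15.5) and 0.679 to 1.73 CPM in U (median 1.13), log2 FC = 4.78 ± 0.89, FDR = 0.00038) and S100a9 (5.21), which squamous epithelium also expresses, were highest in UT 2 and had log2 FCs of 3.82 and 4.17 without it. The receptor genes Csf3r and Cxcr2, more restricted to neutrophils, rose by 2.29 (1.66 without UT 2) and 1.58, and neither passed with the adipocyte level as a covariate. The marker that was lower was the granule protease gene Elane, at 0 to 2.89 CPM in UT (median 0.794) and 2.46 to 6.88 CPM in U (median 4.98), whose call ended per mouse (FDR = 0.1) and turned to 0.41, not called, with the adipocyte level.

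Of 17 macrophage markers 10 rose and none fell (median 1.46), and 13 were higher with the adipocyte level as a covariate (median 1.82). Cd68, a lysosomal glycoprotein, was at 51.5 to 141 CPM in UT (median 90.5) and 19.1 to 35.6 CPM in U (median 24.8) (log2 FC = 1.80 ± 0.24, FDR = 3.5e-05), without overlap, while the defining genes Adgre1, encoding F4/80 (log2 FC = 0.37 ± 0.44, FDR = 0.49), and Csf1r (log2 FC = 0.66 ± 0.32, FDR = 0.094) and the mannose receptor Mrc1 (0.62) were not called. Trem2, a lipid receptor of macrophages, rose by 3.78, and it was named after its values were seen. In UT 4 the summed list stood at 20597 CPM, of which Spp1 gave 19226 CPM, against 1843 to 5952 CPM in the other UT libraries and 773 to 1322 CPM in U. UT 4 was also the library with kidney tubule transcripts, so its Spp1 cannot be assigned to macrophages here.

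B and plasma cell markers and T cell markers were higher, and both varied widely among the cancers. Of 8 B and plasma cell markers 7 rose (median 3.99), and of 14 T cell markers 11 rose (median 1.83). Jchain, the joining chain of secreted IgA and IgM, was at 25.6 to 2036 CPM in UT (median 676) and 6.87 to 44.1 CPM in U (median 13.8) (log2 FC = 5.25 ± 1.01, FDR = 0.0005), Cd79a, a subunit of the B cell receptor, at 0.642 to 187 CPM in UT (median 62.4) and 1.53 to 7.55 CPM in U (median 2.75) (log2 FC = 4.32 ± 1.08, FDR = 0.0033), and Ms4a1, encoding CD20, rose by 3.47 (4.18 without U 2R). Summed B and plasma markers were 38.2 CPM in UT 2, 40.9 CPM in UT 10 and 79.0 CPM in UT 4, within or near the U range of 15.7 to 81.4 CPM, and 257 to 2279 CPM in the other 8. Of the T cell genes, Cd4 rose by 2.47 and Cd3e by 1.93, while Cd8a was not called (log2 FC = 0.95 ± 0.76, FDR = 0.3), and the cytotoxic granule gene Gzmb rose by 1.68. Only 1 T cell marker and 5 B and plasma cell markers passed per mouse, where Cd4 (FDR = 0.13), Cd3e (FDR = 0.27), Gzmb (FDR = 0.23) and Ms4a1 (FDR = 0.14) did not, and the call of Cd3e also ended without UT 6, U 1R, U 1L, U 2R or U 2L (1.49 to 2.19 over single libraries left out) and that of Gzmb without UT 9, U 1R, U 1L, U 2R or U 2L (1.34 to 2.06). With the adipocyte level as a covariate 11 T cell and 8 B and plasma cell markers were higher. Of 8 mast cell markers 2 were higher (25%, against 18.7% of all genes), and 5 were with the adipocyte level as a covariate. The list median of 0.51 was −0.05 without UT 9, where 7 could be tested. Cpa3 was at 0.18, Cma1 at -0.12 and Kit at -0.28 on the log2 scale.

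**Figure D5:**
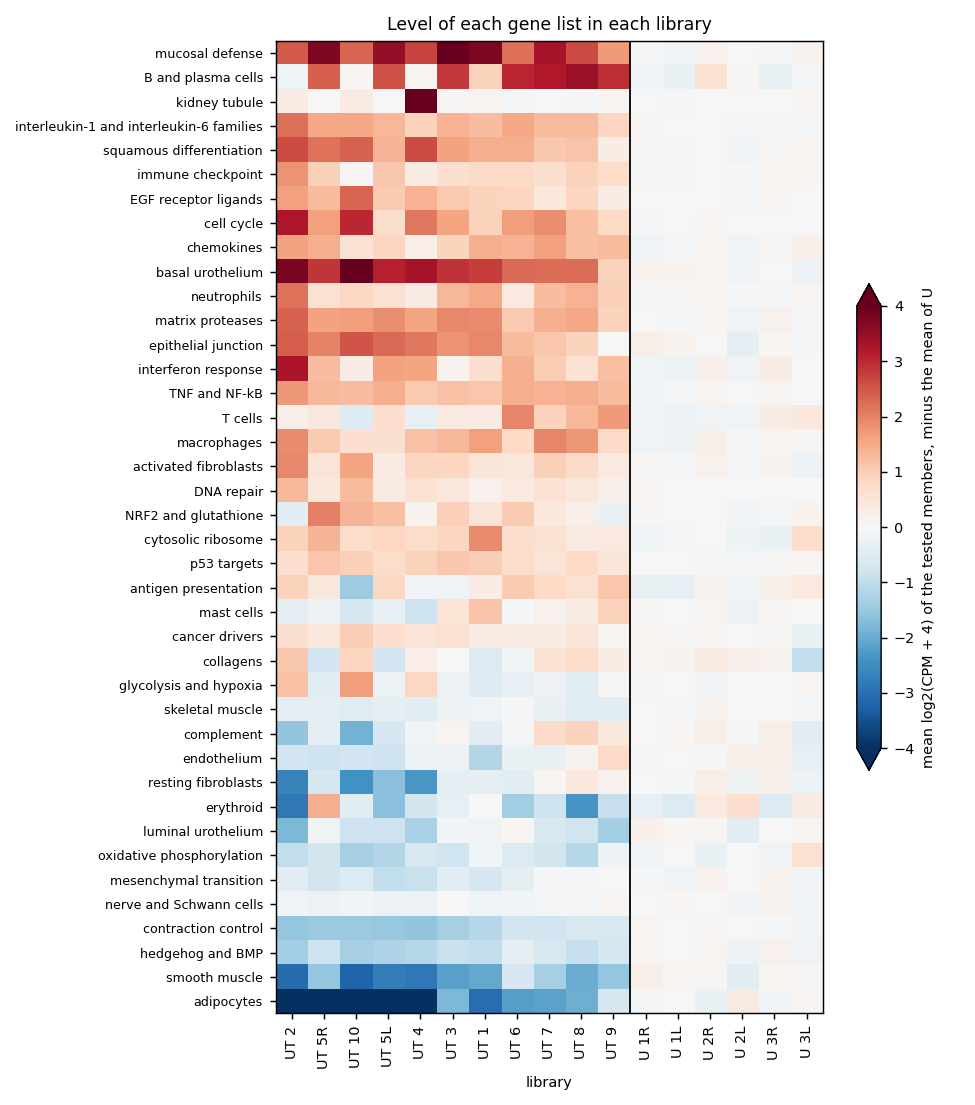
Mean log2(CPM + 4) of the tested members of each of 40 gene lists minus the mean of U (colour, red higher and blue lower) in each library, UT ordered from the most to the least changed, then U. Mucosal defense and basal genes are higher in every UT library, adipocyte and smooth muscle genes lower in every UT library, and interferon genes stand out in UT 2 and kidney tubule genes in UT 4.

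Smooth muscle genes were lower in the cancers. Of 17 markers 15 were lower and none rose, against 12.5% of all genes lower, with a median of −1.86, and the summed markers were 469 to 3252 CPM in UT and 3398 to 5769 CPM in U. Myh11 (chr16:14194535-14291372), the smooth muscle myosin heavy chain given above, had log2 FC = -2.98 ± 0.64, FDR = 0.0011. Acta2, smooth muscle actin, was at 139 to 926 CPM in UT (median 332) and 834 to 1642 CPM in U (median 1251) (log2 FC = -1.78 ± 0.34, FDR = 0.00046), Actg2 had a log2 FC of -1.62 and desmin, Des, -1.29. Myocd, the coactivator that switches on these genes, was at 0.304 to 5.03 CPM in UT (median 1.59) and 10.2 to 18.7 CPM in U (median 15.5) (log2 FC = -3.01 ± 0.44, FDR = 6e-05), without overlap. Adipocyte markers fell in the same libraries, and with their level as a covariate 6 of 17 were lower, without Myh11 (-1.09, FDR = 0.35), Acta2 (-1.10), Actg2 (-0.65) and Des (0.16). Per mouse 13 were lower, without Des (FDR = 0.13).

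Receptors and channels that set ureteral contraction were lower as well. Of 8 tested genes 6 were lower and 1 was higher (median −1.56). Adrb3, the beta 3 adrenoceptor, which adipocytes express too, was at 0.214 to 389.7 CPM in UT (median 6.80) and 530.5 to 785 CPM in U (median 665) (log2 FC = -3.55 ± 1.08, FDR = 0.011, -4.83 without UT 9), and Adra1a, the alpha 1A adrenoceptor, at 0 to 7.92 CPM in UT (median 2.31) and 9.16 to 23.9 CPM in U (median 15.5) (log2 FC = -2.69 ± 0.62, FDR = 0.0019). The L-type calcium channel gene Cacna1c fell by 1.44 on the log2 scale and the ATP-gated channel P2rx1 by 1.35. Ano1, a chloride channel of pacemaker cells, was not called (log2 FC = 0.38 ± 0.34, FDR = 0.36). Htr2b, a serotonin receptor, rose by 2.95. Per mouse 4 genes were lower, without P2rx1 (FDR = 0.2), and with the adipocyte level 2 were lower (median −0.47), where Cacna1c was still lower (-1.10) while Adrb3 (-0.49), Adra1a (-1.60) and P2rx1 (0.20) were not.

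Genes of hedgehog and BMP signalling, through which ureteral epithelium and mesenchyme maintain each other, were lower. Of 11 genes 9 were lower (81.8%, against 12.5% of all genes) and none rose (median −1.70). Shh, the epithelial ligand, was at 0 to 7.01 CPM in UT (median 1.47) and 4.92 to 11.3 CPM in U (median 9.08) (log2 FC = -1.74 ± 0.64, FDR = 0.031), its target Gli1 had -1.04 and its antagonist and target Hhip -3.46. Tbx18, a factor of ureteral mesenchyme, was at 1.57 to 20 CPM in UT (median 9.16) and 32.9 to 50.1 CPM in U (median 39.8) (log2 FC = -2.06 ± 0.45, FDR = 0.0012), Bmp2 had -2.15 and Wnt5a -1.84, and Bmp4 was not called (0.08). Per mouse 6 were lower, without Shh (FDR = 0.13) and Gli1 (FDR = 0.1), and the call of Gli1 also ended without UT 2, UT 4, UT 5L, UT 10, U 2R or U 3R (−1.14 to −0.82 over single libraries left out). With the adipocyte level 2 were lower, and Shh (0.12), Gli1 (-0.08), Tbx18 (-0.56), Hhip (-1.63) and Wnt5a (-1.05) did not pass.

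Some nerve markers were lower, and most endothelial and resting fibroblast markers were not called. Of 12 nerve and Schwann cell markers tested, with a median of −1.03, 4 were lower (33.3%, against 12.5% of all genes), among them the glial factor Sox10 (log2 FC = -2.25 ± 0.67, FDR = 0.01) and the neuronal hydrolase Uchl1 (log2 FC = -2.83 ± 0.60, FDR = 0.001), and 3 were higher (25%, against 18.7% of all genes), Tubb3 (1.93, 2.67 without U 1L), Mbp (1.31) and Ngfr (3.29), the last also a gene of basal epithelium. Per mouse 2 were lower and 3 higher. The nerve and Schwann cell list summed was 137 to 294 CPM in UT and 95.3 to 127 CPM in U, without overlap and higher in UT although the list median was below 0, and Mbp had the largest part in it (mean 139 CPM in UT and 56.1 CPM in U). Of 15 endothelial markers Kdr, encoding VEGF receptor 2, was lower (10 to 217 CPM in UT (median 23.9) and 56.5 to 179 CPM in U (median 131), log2 FC = -1.55 ± 0.55, FDR = 0.027, -2.29 without UT 9) and Esm1 was higher (2.05), neither of which passed per mouse (FDR = 0.14 and 0.11), and Pecam1 (-0.29, FDR = 0.42) and Cdh5 (-0.82, FDR = 0.054) were not called. Without UT 9, 3 endothelial markers were lower, Cdh5 among them. Of 11 resting fibroblast markers (median −0.50) 2 were lower (18.2%, against 12.5% of all genes). Gelsolin, Gsn (log2 FC = -2.25 ± 0.53, FDR = 0.002), also expressed in fat, was among them. The resting fibroblast list summed was 597 to 7294 CPM in UT and 8619 to 11633 CPM in U, without overlap, and Gsn had the largest part in it (mean 1696 CPM in UT and 8096 CPM in U), while Dcn, encoding decorin, was at 57.8 to 2065 CPM in UT (median 1326) and 965 to 1352 CPM in U (median 1109) (log2 FC = -0.09 ± 0.52, FDR = 0.89), and Pdgfra (-0.13) and Pi16 (0.27) were not called. In the fit with the adipocyte covariate, Sox10 (-0.10), Tubb3 (1.41), Mbp (0.68), Kdr (-0.24), Esm1 (0.31) and Gsn (-0.52) did not pass, and 1 nerve marker, 1 endothelial marker and 2 resting fibroblast markers were higher and 2 nerve markers lower.

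Activated fibroblast genes and matrix proteases were higher, and most collagens were not called. Of 14 activated fibroblast genes 10 rose (median 1.44): Inhba, encoding a subunit of activin A, was at 2.18 to 55.7 CPM in UT (median 5.90) and 0.170 to 0.651 CPM in U (median 0.448) (log2 FC = 4.91 ± 0.82, FDR = 0.00016), and Cthrc1 rose by 3.88 (3.29 without UT 2). The defining genes Postn (-0.58) and Fap (log2 FC = -0.43 ± 0.46, FDR = 0.45) were not called, and Tnc (1.24) lost its call without UT 10 (0.91) and per mouse (FDR = 0.1). Of 15 collagens 5 rose (33.3%, against 18.7% of all genes) and 1 was lower (6.67%, against 12.5%), with a median of 0.41. Col7a1, which anchors epithelium to its base, was at 7.66 to 110.3 CPM in UT (median 16.2) and 2.28 to 7.32 CPM in U (median 4.71) (log2 FC = 2.48 ± 0.59, FDR = 0.0023), Col3a1 (0.41) and Col4a1 (-0.40) were not called, and the call of Col1a1 (log2 FC = 1.33 ± 0.63, FDR = 0.086) ended per mouse (FDR = 0.23) and without UT 2, UT 8, UT 10, U 1R, U 1L, U 2L, U 3R or U 3L (0.82 to 1.45 over single libraries left out). With RIN as a covariate 7 activated fibroblast genes and 2 collagens were higher, and per mouse 8 and 2. In the fit with the adipocyte covariate, 3 activated fibroblast genes and 1 collagen were higher, without Col7a1 (0.64), Cthrc1 (1.74), Tnc (0.84) or Col1a1 (-0.05).

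Among 12 matrix proteases and their regulators 10 rose (median 2.55). Timp1, an inhibitor of metalloproteases, was at 12.8 to 158 CPM in UT (median 80.6) and 0.570 to 1.79 CPM in U (median 1.11) (log2 FC = 5.94 ± 0.54, FDR = 1.4e-06), and Mmp3, stromelysin 1, at 5.71 to 98.8 CPM in UT (median 58.0) and 6.18 to 12.1 CPM in U (median 9.13) (log2 FC = 2.58 ± 0.54, FDR = 0.0009), with overlap only at the lowest UT library. Mmp14, a membrane collagenase, rose by 2.52, and Mmp12, the macrophage elastase, by 5.38 (4.24 without UT 2). Mmp13, a collagenase, was at 1.01 to 103 CPM in UT (median 2.60) and 2.53 to 4.47 CPM in U (median 3.18), and its increase (log2 FC = 2.13 ± 0.98, FDR = 0.076) rested on UT 2, without which the log2 FC was 0.75 and not called, and it also missed the threshold without any 1 of the 6 U libraries (up to 2.26). The urokinase gene Plau (1.29) did not pass per mouse (FDR = 0.16), and with the adipocyte level its log2 FC was -0.63 and that of Mmp13 -2.45, where Mmp13 was called lower and 8 genes were higher.

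The letters of an AP-1 site, TGANTCA on both strands, were found in 6 of 9 protease genes with a promoter sequence and in 7.82% of all genes. The promoters of 4 metalloprotease genes that lie together on chromosome 9 are shown with the match in capitals.
Mmp7, chr9:7692002-7692058, plus strand: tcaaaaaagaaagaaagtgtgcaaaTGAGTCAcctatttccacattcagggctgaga
Mmp3, chr9:7445751-7445807, plus strand: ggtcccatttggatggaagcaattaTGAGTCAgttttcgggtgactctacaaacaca
Mmp10, chr9:7502254-7502310, plus strand: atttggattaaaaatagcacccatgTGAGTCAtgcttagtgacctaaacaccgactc
Mmp13, chr9:7272454-7272510, plus strand: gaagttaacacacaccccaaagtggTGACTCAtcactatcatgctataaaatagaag
Mmp7 had a log2 FC of 9.26, Mmp10 3.95 (4.71 without U 2R) and Mmp3 2.58, and that of Mmp13, 2.13, rested on UT 2 as said above. Of the other motifs searched, CCAAT was found in 19 of 24 cell cycle genes (37.5% of all genes), TTTGAA in 6 of 24 (18.3%), TGANNNNGC in 6 of 8 NRF2 target genes (38.7%), TGANTCA in 6 of 10 squamous genes and the CArG box in 1 of 13 smooth muscle genes (1.62%).

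Most genes of glycolysis were not called. Of 18 genes of glycolysis and the response to hypoxia 5 rose and 2 were lower (median 0.38). These were 27.8% and 11.1% of the list, against 18.7% and 12.5% of all genes. The glucose transporter Slc2a1 was at 27.9 to 601 CPM in UT (median 63.8) and 19.8 to 23.9 CPM in U (median 22.4) (log2 FC = 2.79 ± 0.68, FDR = 0.0027), without overlap, and Ldha (log2 FC = 0.13 ± 0.31, FDR = 0.74) and Hk2 (-0.50) were not called. Car9, encoding a carbonic anhydrase induced by low oxygen, was at 0.840 to 190.0 CPM in UT (median 2.38) and 0.499 to 1.22 CPM in U (median 0.892) (log2 FC = 4.69 ± 1.39, FDR = 0.0095), reached 190 CPM in UT 10, had a log2 FC of 2.55 without it, and did not pass per mouse (FDR = 0.1). Summed, the list was highest in UT 10 (19676 CPM), UT 2 (18661 CPM) and UT 4 (12756 CPM), the other UT libraries lying at 5901 to 9218 CPM and U at 8311 to 13296 CPM. Of 12 genes of the NRF2 response and glutathione 6 rose (50.0%, against 18.7% of all genes) and 1 was lower (median 1.0), the glutathione transferase gene Gstm1 (26.4 to 2823 CPM in UT and 2279 to 3900 CPM in U, log2 FC = -1.15 ± 0.51, FDR = 0.069), and none was lower per mouse or with RIN as a covariate. Among those that rose, Hmox1, heme oxygenase 1, was at 34.7 to 324 CPM in UT (median 81.8) and 22 to 27.5 CPM in U (median 24.1) (log2 FC = 1.95 ± 0.41, FDR = 0.001) and the quinone reductase Nqo1 rose by 1.99 but did not pass per mouse (FDR = 0.13). Of the 18 genes of glycolysis and hypoxia, 2 were higher with RIN as a covariate and 8 with library totals alone. In the fit with the adipocyte covariate, no glycolysis gene and 1 NRF2 gene were higher, without Slc2a1 (0.16), Car9 (-0.89), Hmox1 (0.97) or Nqo1 (1.43).

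Most genes of the respiratory chain and of the cytosolic ribosome were not called. Of 86 genes of oxidative phosphorylation 18 were lower (20.9%, against 12.5% of all genes) and none rose, with a median of −0.76. Without UT 9, 29 were lower. Ndufs1, a core subunit of complex I, was at 62.5 to 270.1 CPM in UT (median 128) and 301 to 404 CPM in U (median 375) (log2 FC = -1.45 ± 0.23, FDR = 0.00011), Ndufa10 had -1.19 and Ndufb3 -1.19, while Cox5b (log2 FC = -0.65 ± 0.21, FDR = 0.016) was under 2-fold. Of 81 cytosolic ribosomal protein genes 30 rose (37.0%, against 18.7% of all genes) and none fell (median 0.94). Rps12 was at 136 to 461 CPM in UT (median 190.3) and 66.9 to 147 CPM in U (median 80.1) (log2 FC = 1.27 ± 0.26, FDR = 0.00089) and Rpl7 rose less than 2-fold (log2 FC = 0.92 ± 0.23, FDR = 0.0028). Both lists changed with the fit: with the adipocyte level 1 respiratory gene was lower and 5 ribosomal genes were higher, Ndufa10 (-0.75) and Ndufb3 (-0.59) not passing. With library totals alone 3 respiratory genes were lower, without Ndufa10 (-0.91) and Ndufb3 (-0.92), and 69 ribosomal genes were higher, and with RIN as a covariate the counts were 11 and 15.

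Adipocyte genes were lower in the cancers. All 12 markers were lower, against 12.5% of all genes, with a median of −2.57 (−3.21 without UT 9). In 8 of them every UT library lay below every U library, as in 8.48% of all genes. Adipoq (chr16:23146536-23158028), encoding adiponectin, was at 1.5 to 2151 CPM in UT (median 608) and 3061 to 5158 CPM in U (median 3495) (log2 FC = -2.67 ± 0.94, FDR = 0.025). Cfd, encoding adipsin, was at 22.9 to 25587 CPM in UT (median 7216) and 30042 to 56675 CPM in U (median 34382) (log2 FC = -2.31 ± 0.94, FDR = 0.048), Fabp4, a fatty acid carrier, at 27.0 to 8213 CPM in UT (median 1753) and 9508 to 16613 CPM in U (median 9571) (log2 FC = -2.22 ± 0.88, FDR = 0.044), and Fasn, fatty acid synthase, at 63.0 to 10400.0 CPM in UT (median 254) and 5037 to 13631 CPM in U (median 12039) (log2 FC = -2.76 ± 0.96, FDR = 0.023, -3.93 without UT 9). Plin1, which coats lipid droplets, had -2.62 (-3.37 without UT 9), the desaturase gene Scd1 -2.76 (-3.58 without UT 9), Car3 -2.87, Cyp2e1 -2.0 and the hormone gene Lep -3.10 (-3.71 without UT 6). Per mouse 2 of the 12 passed, and Adipoq (FDR = 0.12), Cfd (FDR = 0.19), Fabp4 (FDR = 0.17), Fasn (FDR = 0.11), Plin1 (FDR = 0.16), Scd1 (FDR = 0.18), Car3 (FDR = 0.14), Cyp2e1 (FDR = 0.2) and Lep (FDR = 0.1) did not. How much fat was taken with each ureter is not given in the sources used here, and its part in the other results was not tested beyond the covariate.

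The 10 genes with the largest SD of log2(CPM + 4) among the UT libraries were, with Cfd, Scd1, Car3 and Adipoq among them, mostly genes of fat. Thrsp (3.28 to 3730.5 CPM in UT (median 89.4) and 4292 to 8036 CPM in U (median 5328)), Cidec (3.92 to 2824 CPM in UT (median 1099.8) and 4815 to 7559.7 CPM in U (median 5578)), Retn (2.35 to 2108 CPM in UT (median 598) and 2389 to 5516 CPM in U (median 2697)), Pck1 (1.71 to 1336 CPM in UT (median 32.5) and 970.0 to 4657 CPM in U (median 3360.0)) and Gm2083, a major urinary protein gene that shares reads with near-identical copies, were called lower with log2 FCs of -2.63, -2.55, -2.37, -3.04 and -3.18 (-3.89 without UT 9), and Thrsp lost its call without U 3L (log2 FC -2.52). None of the 5 passed per mouse. Chil4, a chitinase-like protein of airway epithelium and macrophages, was the exception, at 0.389 to 6323 CPM in UT (median 23.4) and 0 to 0.488 CPM in U (median 0.0939), with a log2 FC of 12.61 that was 11.27 without UT 2 and 13.45 without U 3L. This fold also rests on few counts in U.

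Kidney markers were high in 1 UT library. Of 14 kidney markers 5 could be tested and 4 rose, each of them highest in UT 4. Slc34a1, a phosphate transporter of the proximal tubule, was at 463 CPM there and had a log2 FC of 8.69, with 4.64 without UT 4 and 10.92 without U 3L. Lrp2, encoding megalin, had a log2 FC of 3.88 and of -0.82 without UT 4 (4.51 without U 3L), and it was not called without U 1R, U 1L, U 2R, U 2L or U 3R. Without UT 4 and UT 9, 4 could be tested and 1 was higher. All 4 calls ended with the adipocyte level as a covariate (Slc34a1 0.89), while 2 of 5 passed with RIN and 2 of 8 tested per mouse. Of 5 skeletal muscle markers tested 1 was higher and 1 was lower, Ckm (0.0608 to 4.30 CPM in UT (median 0.447) and 9.63 to 20.3 CPM in U (median 14), log2 FC = -3.71 ± 0.65, FDR = 0.00023), and no erythroid marker was called, Hbb-bs standing at 14.8 to 449 CPM in UT (median 81.7) and 103 to 244 CPM in U (median 162) (log2 FC = -0.59 ± 0.53, FDR = 0.36).

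The side comparison with the noncancerous ureter of BBN-treated mice gave calls only in fits that included U. When all 11 UT, 7 UN and 6 U libraries were fitted together, UT exceeded UN in 206 of 15658 genes (1.32%) and lay below it in 658 (4.2%), 5.52% in either direction, 864 in all, and DESeq2 called 1391. That edgeR fit has no term for the mouse, although all 7 UN libraries are the other ureter of mice that gave UT libraries. In the 7 mice with both, edgeR called 0 of 14869 genes with the mouse as a replicate block (623 at an unadjusted p under 0.05) and 0 without it (1075), and with all UT and UN libraries but without U it called 0 of 15151 (2806). These fits were added after seeing the data. The values of single genes against UN are therefore given without calls, from the fit of 24 libraries and then within the 7 mice. Muc1 had log2 FCs of UT over UN of 3.77 and 5.03 ± 0.72 (FDR = 0.37 within mice, and at least 0.799 there for the other genes given here), Ltf 3.70 and 4.14 ± 0.79, Mmp7 2.89 and 1.87 ± 0.61, Spp1 3.13 and 3.0 ± 1.19, and Krt14 1.05 and 2.09 ± 1.21. Isg15 had 2.1 and 1.90 ± 0.63, Mki67 1.33 and 1.16 ± 0.51, Tnf 1.23 and 1.46 ± 0.70, Upk1a -1.88 and -1.47 ± 0.67, and Pcp4 -3.08 and -2.91 ± 0.96. Lcn2 had -0.12 and 1.51 ± 0.88, and Cdkn1a -0.07 and 0.01 ± 0.23. A p that misses the threshold does not show that UT and UN were alike.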

How the data were processed

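RNA from whole ureter kept in RNAlater was extracted with a miRNeasy kit, made into libraries with SMARTerHT and Nextera XT kits and sequenced on a DNBSEQ-G400RS. The authors deposited 1 table of estimated counts per gene symbol with 1 column per library, in part fractional and not normalized. The submitters' processing notes list TopHat2 2.1.1 and Cuffdiff 2.2.1 with GRCm38/mm10, while the annotation and the counting options are not given in the sources used here. There were 0 columns of per-sample values without a sample. UT and U were taken from the sample labels, and UT 5R and UT 5L are the ureters of 1 mouse.

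Estimated counts were rounded to whole numbers and tested with edgeR 4.0.16 (quasi-likelihood test, R 4.3.3) after filtering on low counts and TMM scaling, and 15357 of 24421 symbols were tested. A call required FDR under 0.1 and at least 2-fold, SE is the log2 FC divided by the root of the F statistic, and levels for SD and list means are log2(CPM + 4). On simulated counts for these 17 libraries, run on 15232 genes, 92.7% of 192 genes changed 4-fold were recovered with 8 false calls, and without any change no gene was called. The simulated libraries were independent, with the same dispersion in both groups and few changed genes. In the data the dispersion differed between groups, libraries of 1 mouse correlated and many genes changed. The simulated rates therefore do not give the error rates of UT against U. The depth was 9724542 to 18793560 counts per library. In U, 3 counts corresponded to a mean of 0.222 CPM, so genes near that level rest on a few counts per library. Libraries at 0 were given a floor of 3 counts per library that covers counting error only.

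Named genes were the 12 largest called changes in each direction without overlap and with a mean of at least 10 CPM in the higher group, the first 4 genes of each of 40 lists, the 6 most abundant called genes in each direction and the 10 genes with the largest SD in UT. A few genes that this rule names are not reported here. Other list members in the text were picked with their values in view. The comparison, members and lists were chosen with earlier results of these data known. Alternatives were other scalings (RLE, library totals), filters, DESeq2 1.42.0, limma 3.58.1 (voom with a variance for each group, and limma-trend with mouse as a random effect), counts summed per mouse, UN added to the fit, RIN, side or a replicate block as covariates, the first range of sample codes alone, and each library left out. Pairs of UT and U with the same number came from different mice. UN and UT of 1 number came from 1 mouse, so UT and UN were also compared within the 7 mice. Libraries from 1 mouse had a consensus correlation of 0.594. No pair of libraries of a group agreed within sampling noise (chi-square per degree of freedom at least 7.57). Promoter sequences are from RefSeq (GRCm38.p6), gene coordinates from GENCODE vM21 on GRCm38, and no coordinate was converted. Mutation and metabolite data, bladders and quantitative PCR were not analysed here.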

Additional observations from a re-analysis of the deposited data

Results flagged for a closer look

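In U, a group of 6 libraries, 20 of 84 values looked at had a highest or lowest library set off from the other 5 by more than the 95% critical gap of Dixon's test, where chance gives about 1 in 20 for a single value, and 13 of the 20 were in U 3L. The 84 values include genes and lists that move together, so they are not independent and the count of 20 is a description only. The 11 UT libraries were too many for this rule. In U 3L the levels of Spp1 (5.45 CPM, next 2.55), Kcnj16 (0.651 CPM), Chil4 (0.488 CPM), Tmsb4x (1748 CPM), Cfd (56675 CPM, next 36782), Fabp4 (16613 CPM), Thrsp (8036 CPM) and Retn (5516 CPM) were the highest, and that of Col23a1 (28.96 CPM, next 51.5) was the lowest. Against the mean of U, in log2(CPM + 4), U 3L was also highest for the lists oxidative phosphorylation (0.595) and cytosolic ribosome (0.716) and lowest for collagens (−0.973) and cancer drivers (−0.285).

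In U 2L, Clu (241 CPM) and the lists luminal urothelium (−0.413), smooth muscle (−0.461) and mast cells (−0.247) were lowest. Gabrp was highest in U 1L (1.57 CPM), DNA repair in U 1R (0.0800) and B and plasma cells in U 2R (0.620).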

How the results depend on the processing

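The number of genes higher in UT than in U, 2874, lay between 1947 (adipocyte level as a covariate) and 3820 (library totals alone) over all alternatives, and the number lower, 1918, between 1353 (library totals alone) and 2480 (replicate block) except with the adipocyte level, where it was 374. Leaving out each library gave 2733 to 2928 genes higher and 1809 to 2171 lower, the last without UT 9. Summed per mouse, 2430 were higher and 1556 lower, and with RIN as a covariate 2432 and 1625. UT and U share replicate numbers, but same-numbered libraries are from different mice and their deviations correlated between −0.106 and 0.12, and a fit with the replicate block gave 2719 higher and 2480 lower. Against UN, 864 genes were called, 930 with RLE size factors, 1391 with DESeq2, and 0 in the 7 mice with both UT and UN with the replicate block for the mouse, 0 there without it and 0 with U left out.

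Of 4836 results for called named genes under the other settings described in the methods, 4699 kept their direction and passed, 135 did not pass and 2 reversed, both of Lrp2 (−0.87 with DESeq2 and −0.82 without UT 4, beside −1.07 without UT 4 and UT 9). Sign changes between values that passed in neither fit, 90 in number, are not counted as reversed. Medians of lists moved by less than the spread between replicates in 930 of 962 cases, and the kidney tubule median became −0.30 with DESeq2, −0.45 without UT 4 and −0.49 without UT 4 and UT 9, and that of collagens −0.21 with the replicate block. Without U 3L, the log2 FC of Lrp2, which is also the kidney tubule median, was 4.51. With the adipocyte level as a covariate, added after seeing the data, log2 FCs reversed for Cfd (1.32), Scd1 (0.68), Car3 (1.3), Fabp4 (1.05), Cyp2e1 (0.96), Thrsp (1.29), Cidec (1.21), Adipoq (0.92), Retn (1.32), Gm2083 (0.51), Plin1 (1.05), Lep (0.57), Ucp1 (1.01), C3 (0.030), Des (0.16), P2rx1 (0.20), Dcn (1.51), Shh (0.12), Elane (0.41), Col1a1 (−0.0535), Mmp13 (−2.45), Plau (−0.63), Car9 (−0.89) and Lrp2 (−2.26), and list medians for complement (1.03, from −0.03), nerve (0.56), endothelium (0.31), resting fibroblasts (1.13), adipocytes (1.03), glycolysis (−0.69) and kidney tubule (−1.77). Cfd, Fabp4, Cidec, Adipoq, Retn, Plin1, Lep and Ucp1 are themselves part of the adipocyte level. Their values in that fit, and the adipocyte list median, were thus set by the covariate and say nothing of the group. The cause of the other reversals was not tested. Depth limits genes with a few counts in U, such as Cdkn2a, Csf3, Tmem171, Mill1, Cxcl2, Olfm4 and Chil4, whose fitted folds depend on the prior count. The 3 untreated mice limit the precision of U.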

Other observations

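Beside Ccl20, 8 genes tested had no count in any U library. Among them, each against the level that 3 counts in a U library would give, the mean of Mcpt2, a mast cell protease gene that shares reads with related copies, was at least 63.6-fold higher in UT, with a count in 10 of 11 UT libraries. The serpin gene Serpinb11 was at least 31.0-fold higher, the mucosal peptide gene Tff1 at least 28.8-fold and Sectm1b at least 28.8-fold, each with a count in all 11 UT libraries. Foxi1, a transcription factor of ionocytes, was at least 9.09-fold higher, with a count in 8 of 11. These genes were named after their values were seen.

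UT 5R and UT 5L, the cancers of both ureters of mouse 5, differed from each other in some lists. The summed erythroid markers were 3349 CPM in UT 5R and 301 CPM in UT 5L, the smooth muscle markers 1884 and 524 CPM, and the cell cycle genes 940 and 455 CPM, while the B and plasma cell markers were 1508 and 1775 CPM and the basal genes 6374 and 6272 CPM. With 1 library for each side these differences have no replicate check.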
